A study of Mus musculus with 7 samples.

Results

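The genes described here encode many of the building blocks of the cornified envelope, and lie next to each other on mouse chromosome 3 in the epidermal differentiation complex. They were taken from the deposited table as the chromosome 3 genes whose names begin with Lce or Sprr, together with Lor, Ivl, Flg, Flg2, Hrnr, Rptn, Crnn, Crct1, Tchh, Tchhl1 and 2310046K23Rik, and without the S100 genes of the same region. This gave 49 of the 56691 genes in the table. Of these, 13 belong to the Sprr2 family, 14 to Lce1, 6 to Lce3, 2 to Sprr1 and 7 to the fused S100 type. The other 7 are Lor, Ivl, Crct1, Lce6a, 2310046K23Rik, Sprr3 and Sprr4.

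The study compared skin sections of 3 Tuft1 knockout mice (mice 2, 3 and 4), taken where the skin looked healthy, with healthy skin of 4 wild-type mice (mice 5, 6, 7 and 8). Tuft1 encodes tuftelin 1, which the series title describes as associated with desmosomes. The labels give the genotype and the appearance of the skin, while the deleted part of Tuft1, the strain, the age and the body site are not given in the sources used here. RNA came from powdered frozen tissue, so every value is an average over all cells of the piece, and markers of keratinocytes, fibroblasts, fat and muscle were all detected. In such bulk samples fewer cells of a type and less RNA per cell cannot be told apart. The libraries read tags near the 3′ end of polyadenylated transcripts, so a count does not grow with transcript length, and levels of different genes are set side by side in CPM, the counts scaled to library size with TMM factors. The groups are called knockouts and controls below.

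The cornified envelope is the protein shell that replaces the plasma membrane of keratinocytes as they die and form the outermost layer of the skin. Involucrin, the product of Ivl, is laid down early as a scaffold, and transglutaminases then cross-link loricrin (Lor), small proline-rich proteins (Sprr) and late cornified envelope proteins (Lce) onto it. The fused S100 type proteins carry a calcium-binding S100 domain in front of long repeats. Filaggrin (Flg) among them bundles keratin filaments and is later broken down to amino acids that hold water in the stratum corneum, and trichohyalin (Tchh) serves the inner root sheath and medulla of the hair.

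Libraries held 7009237 to 9256459 counts, of which the 49 genes took 0.950% to 1.47%. Tuft1 was at 19.9, 29.1 and 17.2 CPM in knockouts 2, 3 and 4, against 106, 104, 55.6 and 114 CPM in controls 5, 6, 7 and 8, with all knockouts below all controls. The means were 22.1 ± 6.23 CPM (SD, n = 3) for knockouts against 94.9 ± 26.6 CPM (SD, n = 4) for controls, a difference of -2.10 on the log2 scale (SE 0.39, adjusted p = 0.172 by edgeR). Since the deleted part is not known here, tags from the 3′ end may lie outside it. Tuft1 lies on the same chromosome, 1141 to 2530 kb from the 49 genes. Knockout mouse 2 stood apart in hair genes: 45 of 58 keratin-associated protein genes had counts there, against 2 to 4 in each other library. Nothing in the labels says that mice of a group came from different litters or days, so the spread between libraries covers these mice only.

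The promoters of 6 of these genes are shown. Lor is the gene with most counts, and Sprr1a is one of the stress-associated genes. Lce1b holds a stretch of bases that 8 Lce1 promoters share, and Lce1m lacks it. Flg2 and Flg are neighbours whose log2 fold changes had different signs, with overlap between the groups in Flg2. Each sequence is the 150 bases before the annotated transcription start, 5′ to 3′, from RefSeq on build GRCm38.p6. Capitals mark TGAGTCA (the AP-1 motif) in Lor and Sprr1a, ACTGTCTCACA in Lce1b, TATAAA in Lce1m, and CCATCCCACAGA in Flg2 and Flg.
Lor (chr3:92083143-92083292, minus strand): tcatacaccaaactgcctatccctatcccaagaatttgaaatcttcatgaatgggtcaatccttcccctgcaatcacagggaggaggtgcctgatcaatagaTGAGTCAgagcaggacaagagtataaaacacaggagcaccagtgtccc
Sprr1a (chr3:92485882-92486031, minus strand): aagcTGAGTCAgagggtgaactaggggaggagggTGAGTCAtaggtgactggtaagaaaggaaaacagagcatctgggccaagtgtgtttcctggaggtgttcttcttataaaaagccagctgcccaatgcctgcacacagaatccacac
Lce1b (chr3:92656927-92657076, minus strand): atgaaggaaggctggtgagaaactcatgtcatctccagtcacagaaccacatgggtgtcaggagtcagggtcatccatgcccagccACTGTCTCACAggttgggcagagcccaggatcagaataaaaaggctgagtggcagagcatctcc
Lce1m (chr3:93019062-93019211, minus strand): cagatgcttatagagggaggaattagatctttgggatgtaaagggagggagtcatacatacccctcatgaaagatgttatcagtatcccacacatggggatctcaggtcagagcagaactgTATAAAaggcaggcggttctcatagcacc
Flg2 (chr3:93197123-93197272, plus strand): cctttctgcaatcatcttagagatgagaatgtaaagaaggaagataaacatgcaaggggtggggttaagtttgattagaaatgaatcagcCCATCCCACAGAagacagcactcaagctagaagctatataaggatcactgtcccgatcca
Flg (chr3:93273396-93273545, plus strand): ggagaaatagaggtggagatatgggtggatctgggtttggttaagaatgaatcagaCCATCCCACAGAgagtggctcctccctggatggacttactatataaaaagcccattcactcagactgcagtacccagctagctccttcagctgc

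A promoter was found for 43 of the 49 genes, and not for 2310046K23Rik, Crct1, Lce1f, Sprr2g, Sprr2c-ps and Sprr2j-ps. TGAGTCA, searched on both strands, lay in this window of 3 of the 43, namely Lor, Sprr1a and Ivl, against 2.80% of the 27025 RefSeq promoters. Sprr1a held it at 2 places. ACTGTCTCACA was the longest run shared by at least 8 of the 13 Lce1 promoters at hand. It was in 8 of them (Lce1a1, Lce1a2, Lce1b, Lce1d, Lce1e, Lce1h, Lce1i and Lce1j) and in 11 promoters of all (0.0407%), and not in that of Lce1m. Lce1m instead held TATAAA, found in 18 of the 43 promoters and in 8.08% of all. Lce1d was the only other Lce1 promoter with TATAAA. CCATCCCACAGA was the longest run common to Flg and Flg2 and was in 4 promoters of all (0.0148%). Such matches describe letters in a window and no bound factor.

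Knockout skin held less Lor, Lce1m, Lce1h, Lce1b and Lce6a than wild-type skin in every mouse, and more Flg. No gene of the complex passed edgeR's quasi-likelihood test, in which 0 of the 27 tested members were called, against 0.0233% of the 12888 genes tested. An unadjusted p under 0.05 was reached by 4 members higher and 4 lower in knockout skin, where 1.71% and 2.59% of all genes tested did so. The 4 higher were Flg, 2310046K23Rik, Sprr1a and Tchh, of which Sprr1a and Tchh rest on knockout mouse 2. Groups did not overlap in 1 member higher and 5 lower in knockout skin, against 3.44% and 3.45% of all genes tested. Without knockout mouse 2 these became 2 higher and 11 lower, against 7.37% and 8.34% of the genes tested, and without knockout mouse 3 they became 4 higher and 5 lower, against 7.40% and 6.04%. Fold changes lay below 0 in 14 of the 27 members, against 50.5% of all genes, and the median log2 fold change was -0.10 over the members and -0.01 over all genes tested. Of the 20 members with a mean of 50 CPM or more, 3 higher and 4 lower had an unadjusted p under 0.05 (3.62% and 5.02% of the 3485 tested genes at that level), and 1 higher and 4 lower did not overlap (3.73% and 5.54%). Sprr1a is 1 of these 3 higher members. Other tools called some members: the DESeq2 Wald test called Lce1m and Lce1h as lower and Flg and 2310046K23Rik as higher (4 members, against 0.954% of all genes), and limma-voom called Lce1m alone (0.171% of all genes). Without a filter on low counts edgeR called Lce1m as lower and 2310046K23Rik, Sprr1a and Tchh as higher (0.397% of 19128 genes), and Sprr1a and Tchh rest on knockout mouse 2.

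**Figure D1:**
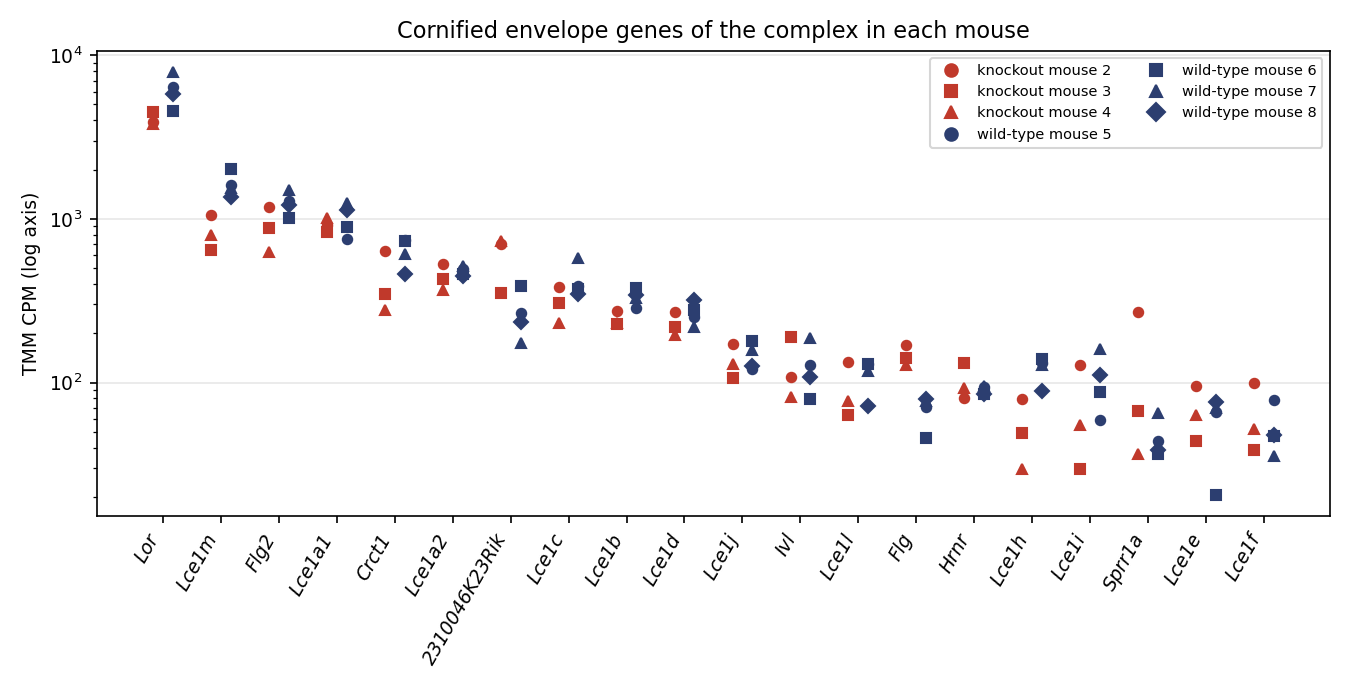
TMM-scaled CPM (log axis) of the 20 genes of the complex with a mean of at least 50 CPM, ordered by mean level, with 1 point per mouse (red, 3 knockout; blue, 4 wild type). Knockout mice sit below all controls in Lor, Lce1m, Lce1b and Lce1h, and above them in Flg.

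Lor encodes loricrin, the main protein of the mature envelope by mass, and was the most abundant of the 49 transcripts. It stood at 3882, 4505 and 3807 CPM in knockouts 2, 3 and 4, against 6415, 4580.1, 7906 and 5779 CPM in controls 5, 6, 7 and 8. All knockouts lay below all controls, but mouse 3 was only just below wild-type mouse 6. The means were 4065 ± 384 CPM (SD, n = 3) for knockouts against 6170.0 ± 1385 CPM (SD, n = 4) for controls, or 65.9% of the wild-type level (log2 fold change -0.60, SE 0.21, adjusted p by edgeR = 0.979). The gene (ENSMUSG00000043165.8) lies on the minus strand at 91987578 to 91990449 (mm39), at one end of the cluster. With DESeq2 size factors the groups overlapped.

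Values of other suprabasal genes are given beside it. Krt10, a keratin of the same living suprabasal layers, was at 3529 ± 881 CPM for knockouts against 4954 ± 657 CPM for controls (log2 fold change -0.49, SE 0.21, adjusted p by edgeR = 0.9997). Krt77, a keratin of the same layers, was at 3509 ± 1235 CPM for knockouts against 4873 ± 716 CPM for controls (log2 fold change -0.47, SE 0.24), and Krtdap, a secreted keratinocyte protein, at 2674 ± 1104 CPM for knockouts against 3920.2 ± 521 CPM for controls (log2 fold change -0.55, SE 0.26). These were the 3 most abundant genes of the suprabasal list. Krt1, the partner of Krt10, is given because their sum served as a reference, and lay in the other direction at 1564 ± 370.3 CPM for knockouts against 1389 ± 290.5 CPM for controls (log2 fold change 0.17, SE 0.23). Krt1 and Krt10 together spanned 3858 to 5755 CPM in knockouts against 5798 to 6759 CPM in controls, without overlap. The suprabasal list of 16 genes summed to 11660 to 19642 CPM in knockouts against 17846 to 22144 CPM in controls, with 11 of 15 tested genes below 0, 0 called and none at 0 in all libraries. Basal keratinocyte markers (12 of 12 tested, 0 called) summed to 8815 to 12128 CPM and 7976 to 10810.1 CPM, and their most abundant genes, the basal keratins Krt5, Krt15 and Krt14, had log2 fold changes of 0.20 (SE 0.20), 0.15 (SE 0.29) and -0.02 (SE 0.21). Per 1000 Krt10 counts of the same library, Lor had 898, 1223 and 1475 counts in knockouts against 1388, 789.9, 1548 and 1348 counts in controls. On that scale the Lor groups overlapped widely. Fat cell markers also differed (9 of 10 with an unadjusted p under 0.05, 0 called, all 10 below 0), with sums of 3173 to 5562 CPM in knockouts against 8130.5 to 14042 CPM in controls. The most abundant were Fabp4, Lpl and Cfd, with log2 fold changes of -1.52 (SE 0.28), -1.42 (SE 0.24) and -1.08 (SE 0.30). Muscle markers (10 of 10 tested, 0 called, all 10 above 0) had a median log2 fold change of 0.39. They summed to 18018 to 27710 CPM in knockouts against 17556 to 23329 CPM in controls, with overlap. Acta1, Tnni2 and Tnnt3 led them, at 0.06 (SE 0.22), 0.22 (SE 0.19) and 0.47 (SE 0.23) on the log2 scale. Fibroblast markers (8 of 8 tested, 0 called, 7 above 0) had a median log2 fold change of 0.41. Their sums were 12775 to 34931 CPM in knockouts against 13190 to 22496 CPM in controls, with overlap. Col1a1, Sparc and Col1a2 led them, at 0.39 (SE 0.28), 0.01 (SE 0.32) and 0.48 (SE 0.32). The part of these cells in the levels of the complex was not tested.

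Ivl encodes involucrin, the early scaffold. It was at 108, 189.8 and 81.3 CPM in knockouts 2, 3 and 4, against 128, 79.2, 188 and 107 CPM in controls 5, 6, 7 and 8. The groups overlapped throughout and the means were the same to 3 digits (126 ± 56.6 CPM for knockouts against 126 ± 46.1 CPM for controls; log2 fold change 0.01, SE 0.35, adjusted p by edgeR = 0.9997). Knockout mouse 3 and wild-type mouse 7 were the highest of their groups. Its SE leaves room for differences of either sign.

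Late cornified envelope genes of the Lce1 family add to the envelope from the granular layer on, and all 14 passed the filter on low counts. Their summed level was 4208, 3047 and 3293 CPM in knockouts 2, 3 and 4, against 4404, 5073, 5172 and 4493 CPM in controls 5, 6, 7 and 8, without overlap. The mean was 73.5% of the wild-type level. Of the 14, 10 had a log2 fold change below 0 and 4 above 0, with a median of -0.18 against -0.01 over all genes tested, and 0 were called.

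Lce1m contributed more to the difference in this sum than the other 13 genes together. It (ENSMUSG00000027912.9, minus strand, 92925117 to 92926367, mm39) lies beside Crct1, apart from the other Lce1 genes and beyond the Lce3 genes. It stood at 1057, 649.6 and 797 CPM in knockouts against 1609, 2013, 1550.2 and 1355 CPM in controls, in the same order. The highest knockout mouse, mouse 2, was below the lowest wild-type mouse, mouse 8. The means were 834 ± 206 CPM (SD, n = 3) for knockouts against 1632 ± 276 CPM (SD, n = 4) for controls, or 51.1% (log2 fold change -0.97, SE 0.22, adjusted p by edgeR = 0.406). When only the 3485 genes with a mean of 50 CPM or more were fitted, which was chosen after seeing the data, the adjusted p was 0.0568, where 0.717% of genes were called.

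Lce1m supplied 25.1, 21.3 and 24.2% of all Lce1 counts in knockouts 2, 3 and 4, against 36.5, 39.7, 30.0 and 30.2% in controls 5, 6, 7 and 8. The groups did not overlap in these shares, which need no scaling between libraries. Lce1m was chosen for this after its values were seen, as the tested member with the lowest p, so the shares describe the same difference again and were not tested. Without Lce1m the other 13 genes summed to 3151, 2398 and 2496 CPM in knockouts against 2795, 3060.3, 3622 and 3137 CPM in controls, which overlapped. The means with and without Lce1m were 3516 ± 612 CPM for knockouts against 4785 ± 393 CPM for controls, and 2682 ± 409.7 CPM for knockouts against 3153 ± 345 CPM for controls. Per 1000 Krt10 counts, Lce1m had 245, 176 and 309 counts in knockouts against 348, 347, 303 and 316 counts in controls, and only knockout mouse 4 reached the wild-type range.

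Lce1h differed by the largest factor among Lce1 genes at a mean of 50 CPM or more. It was at 79.5, 49.2 and 29.6 CPM in knockouts 2, 3 and 4, against 131, 139.7, 129 and 88.5 CPM in controls 5, 6, 7 and 8, without overlap (log2 fold change -1.21, SE 0.36, adjusted p by edgeR = 0.782). Per 1000 Krt10 counts it had 18.4, 13.4 and 11.5 counts in knockouts against 28.3, 24.1, 25.2 and 20.6 counts in controls, again without overlap. Lce1b was at 273, 227 and 231 CPM in knockouts against 284, 379, 330.3 and 342 CPM in controls (log2 fold change -0.45, SE 0.21, adjusted p by edgeR = 0.9997). Its groups did not overlap, with knockout mouse 2 just below wild-type mouse 5.

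The groups overlapped in 4 further Lce1 genes of high level. Lce1a1, the second most abundant Lce1 gene, was at 919, 829 and 1015 CPM in knockouts against 758, 892, 1258 and 1137 CPM in controls (log2 fold change -0.13, SE 0.22, adjusted p by edgeR = 0.9997). Lce1a2 was at 528, 431 and 366 CPM in knockouts against 491, 462, 513 and 449.5 CPM in controls (log2 fold change -0.12, SE 0.20, adjusted p by edgeR = 0.9997). Lce1j was at 173, 106 and 129 CPM in knockouts against 121, 179, 159 and 125 CPM in controls (log2 fold change -0.10, SE 0.26). Lce1d was at 268, 217 and 195 CPM and 251, 278, 219 and 318 CPM (log2 fold change -0.23, SE 0.23). None of the 4 reached an unadjusted p under 0.05.

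In the other 7 Lce1 genes the groups overlapped as well, and single mice stood out. Lce1c was at 383, 306 and 229.7 CPM in knockouts against 391, 373, 579 and 349 CPM in controls, where mouse 7 was high (log2 fold change -0.46, SE 0.25). Lce1l was at 134, 63.6 and 77.5 CPM and 130.3, 130.1, 117 and 71.8 CPM (log2 fold change -0.29, SE 0.33). Lce1i varied widely, at 128, 29.6 and 54.8 CPM and 59.2, 88.0, 161 and 111 CPM (log2 fold change -0.56, SE 0.47). Above 0 lay Lce1e, Lce1f, Lce1g and Lce1k, with knockout mouse 2 the highest library for the first 3. Lce1e was at 95.0, 43.9 and 63.3 CPM in knockouts against 66.4, 20.6, 70.2 and 75.9 CPM in controls (log2 fold change 0.21, SE 0.45). Lce1f was at 99.4, 38.8 and 52.4 CPM and 78.6, 47.3, 35.7 and 47.8 CPM (log2 fold change 0.28, SE 0.42). The fold changes of Lce1g and Lce1k, both under a mean of 50 CPM, were 0.16 (SE 0.58) and 0.82 (SE 0.79). Without knockout mouse 2 the groups of Lce1c, Lce1i, Lce1a2 and Lce1d did not overlap, with knockouts lower. The groups of Lce1k did not overlap either, with knockouts higher. The log2 fold change of Lce1i was -1.31 without knockout mouse 2 and -0.19 without knockout mouse 3. With 1 mouse left out, that of Lce1c ran from -0.66 to -0.27 and that of Lce1l from -0.68 to -0.088.

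Closeness of sequence sets a limit for some of these genes. In the last 400 bases of the GENCODE transcripts, 36.5% of all 50-base windows of Lce1b, 31.1% of Lce1c and 24.4% of Lce1a1 also occurred in a transcript of another gene, mostly of Lce1. The share was 9.97% in Lce1h and 0% in Lce1m, Lor, Flg, Flg2, Crct1 and 2310046K23Rik. Reads of shared windows may be dropped or split, and their treatment in counting was not given in the sources used here.

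The remaining Lce genes were rare. Lce6a, a single gene beside Lce1a1, was at 14.4, 0 and 3.16 CPM in knockouts against 27.5, 32.1, 39.4 and 19.9 CPM in controls, without overlap and at 19.7% of the wild-type mean (log2 fold change -2.35, SE 1.27, adjusted p by edgeR = 0.9997). It held 111, 0 and 24 counts in knockouts, so its fold change has a wide error. Of the 6 Lce3 genes, which are known from injured and psoriatic skin, 4 had 0 counts in all 7 libraries (Lce3a, Lce3b, Lce3d and Lce3f). Lce3c was at 16.7, 8.29 and 5.13 CPM and 0, 4.95, 8.59 and 6.68 CPM (log2 fold change 0.99, SE 1.82, adjusted p by edgeR = 0.9997). Lce3e had 39 counts in knockout mouse 2 and 0 elsewhere. With 3 counts as the most that a count of 0 allows, the limit lay between 0.323 and 0.395 CPM in these libraries and covers counting error only.

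**Figure D2:**
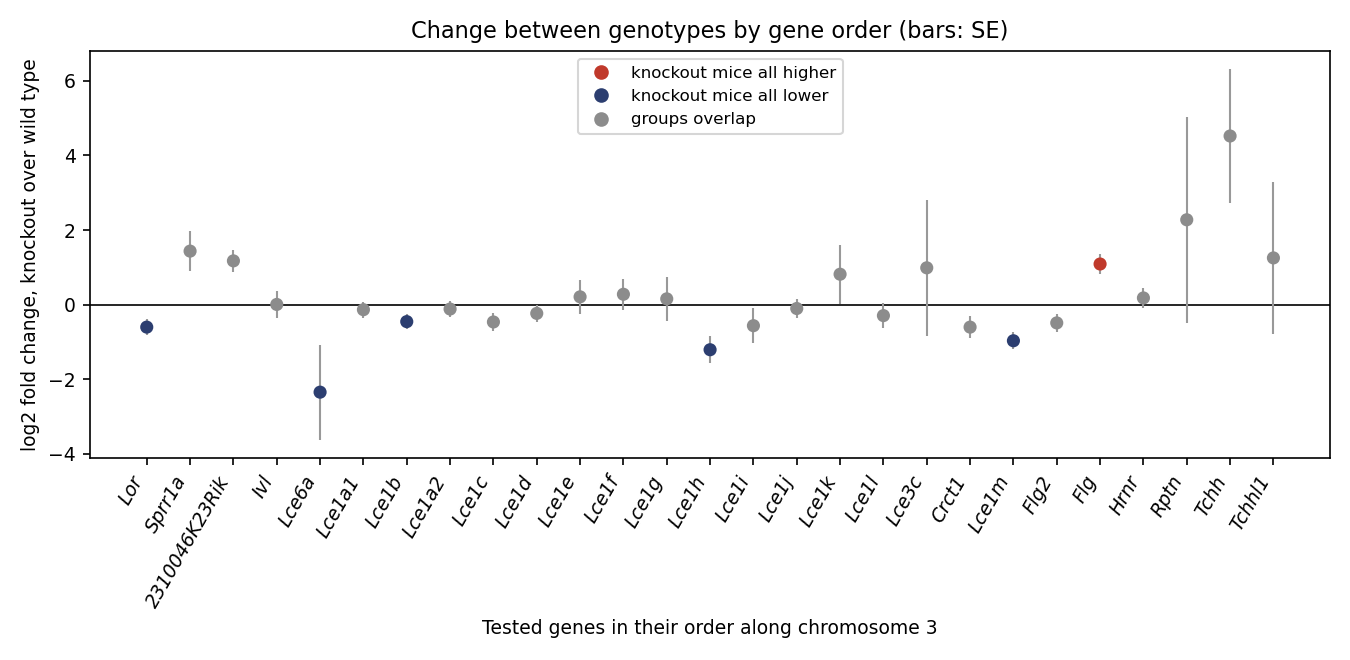
Log2 fold change (knockout over wild type, bars SE) of the 27 tested genes in their order along chromosome 3. Neighbours differ in sign: Flg at 1.09 stands beside Flg2 at -0.49, and Lce1m at -0.97 is one of 5 genes whose knockouts were all lower.

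Filaggrin and its paralogue filaggrin 2 lie side by side among the fused S100 type genes. Their log2 fold changes had opposite signs, but the groups overlapped in Flg2. Flg (ENSMUSG00000102439.5, plus strand, 93180830 to 93200993, mm39) was at 169, 141 and 128 CPM in knockouts 2, 3 and 4, against 71.4, 46.1, 77.0 and 79.5 CPM in controls 5, 6, 7 and 8. Every knockout mouse lay above every wild-type mouse, with the lowest knockout value of mouse 4 far above the highest wild-type value of mouse 8. The means were 146 ± 20.8 CPM (SD, n = 3) for knockouts against 68.5 ± 15.3 CPM (SD, n = 4) for controls, a ratio of 2.13 (log2 fold change 1.09, SE 0.28, adjusted p by edgeR = 0.519). Flg2 (93104585 to 93128698) was at 1183, 874 and 628 CPM in knockouts against 1288, 1017, 1507 and 1213 CPM in controls, with overlap (log2 fold change -0.49, SE 0.24, adjusted p by edgeR = 0.9997). Without knockout mouse 2 its groups did not overlap, and the log2 fold change was -0.75.

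Within single libraries there were 143, 161 and 204 Flg counts per 1000 Flg2 counts in knockouts 2, 3 and 4, against 55.4, 45.4, 51.1 and 65.5 in controls 5, 6, 7 and 8. The lowest knockout ratio was over 2 times the highest wild-type ratio. Per 1000 Krt10 counts Flg had 39.0, 38.2 and 49.6 counts in knockouts against 15.4, 7.96, 15.1 and 18.5 counts in controls, also without overlap. On the same scale Flg2 had 274, 237 and 243 counts in knockouts against 279, 175, 295 and 283 counts in controls, with overlap. These pairs of genes were chosen after their values were seen and were not tested. Over every pair of genes with a mean of 50 CPM or more and with counts in every library, 9.4% gave ratios whose groups did not overlap. Flg transcripts hold long near-identical repeats, which can affect where reads are placed.

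**Figure D3:**
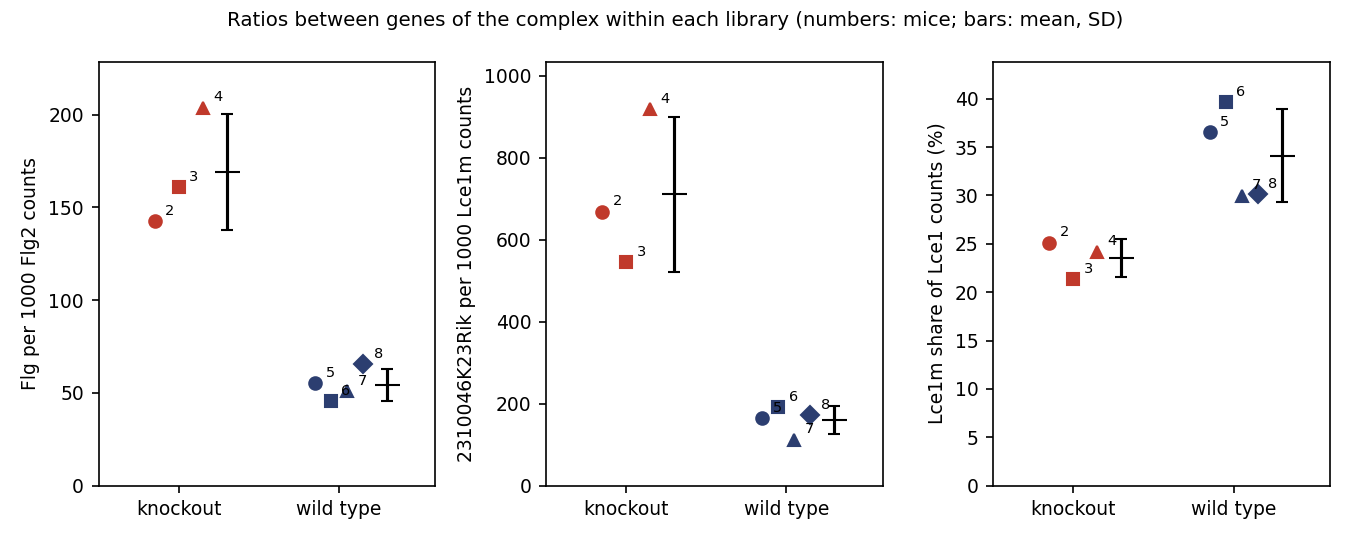
Ratios of counts within each library for 3 knockout (red) and 4 wild-type (blue) mice, with mean and SD beside the points: Flg per 1000 Flg2 counts, 2310046K23Rik per 1000 Lce1m counts, and the percent of Lce1 counts that came from Lce1m. The groups do not overlap in any of the 3 panels. These ratios were chosen after their values were seen and were not tested. Of all pairs of genes at a mean of 50 CPM or more and with counts in every library, 9.4% gave ratios without overlap.

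Hrnr encodes hornerin, a further repeat protein of the stratum corneum, and its groups overlapped. It was at 80.5, 132 and 92.3 CPM in knockouts against 94.3, 84.5, 95.7 and 84.7 CPM in controls, with knockout mouse 3 the highest and controls within a narrow range (log2 fold change 0.18, SE 0.28, adjusted p by edgeR = 0.9997). Crnn, which encodes cornulin, had 0 counts in all 7 libraries. Summed over all 7 fused S100 type genes, the level was 1746, 1147 and 866 CPM in knockouts against 1472, 1158, 1695 and 1386 CPM in controls, with overlap.

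The other 3 fused S100 type genes with counts, hair gene Tchh among them, were carried by knockout mouse 2. Tchh had 1849, 0 and 78 counts in knockouts against 0, 45, 0 and 76 counts in controls (log2 fold change 4.52, SE 1.79, adjusted p by edgeR = 0.9997). Tchhl1 had 438, 0 and 0 counts against 103, 52, 120 and 0 counts (log2 fold change 1.25, SE 2.03). Rptn, which encodes repetin, had 142, 0 and 55 counts against 65, 0, 0 and 0 counts (log2 fold change 2.28, SE 2.76). All 3 were highest in mouse 2 and had 0 counts in knockout mouse 3. In the same library 20 of 21 inner root sheath and hair shaft markers had counts, against 3 to 6 in each other library, and 15 of them were at 0 outside mouse 2. Their sum was 793 CPM in mouse 2, 90.0 and 167 CPM in the other knockouts, and 80.6 to 137 CPM in controls. Of the 5 tested, Dlx3, Krt32 and Hoxc13 were the most abundant, with log2 fold changes of 0.33 (SE 0.37), -0.34 (SE 0.59) and 2.36 (SE 1.54), and 0 were called. Of the keratin-associated protein genes 3 were tested and 0 called, Krtap3-2, Krtap3-1 and Krtap4-6, at -0.56 (SE 0.67), 1.51 (SE 0.90) and -0.31 (SE 2.10) on the log2 scale. The part of hair in these values was not tested. The exons of Tchh overlap those of an antisense gene with 22 counts, and use of strand in counting was not given in the sources used here.

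2310046K23Rik, a little-studied gene between Sprr4 and Ivl, had a higher mean in knockouts. It was at 707, 355 and 731 CPM in knockouts 2, 3 and 4, against 266, 386, 174 and 233 CPM in controls 5, 6, 7 and 8. Mice 2 and 4 were far above the wild-type range, and mouse 3 lay within it, below wild-type mouse 6. The means were 598 ± 211 CPM (SD, n = 3) for knockouts against 265 ± 89.4 CPM (SD, n = 4) for controls, a ratio of 2.26 (log2 fold change 1.17, SE 0.30, adjusted p by edgeR = 0.525). The gene (ENSMUSG00000102308.2) lies on the minus strand at 92439812 to 92441818 (mm39). In the fit to genes with a mean of 50 CPM or more its adjusted p was 0.0568.

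Set against another gene of the complex in the same library, 2310046K23Rik had 669, 546 and 918 counts per 1000 Lce1m counts in knockouts, and 165, 192, 113 and 172 in controls. Every knockout ratio exceeded every wild-type ratio, but Lce1m was itself lower in all knockouts. Per 1000 Lor counts the groups of 2310046K23Rik overlapped, at 182, 78.7 and 192 counts in knockouts against 41.5, 84.3, 22.1 and 40.3 counts in controls. Per 1000 Krt10 counts 2310046K23Rik had 164, 96.3 and 283 counts in knockouts against 57.6, 66.6, 34.1 and 54.3 counts in controls, without overlap. Krt10 itself had a lower mean in knockouts (3529 ± 881 CPM against 4954 ± 657 CPM in controls). In CPM the groups of 2310046K23Rik overlapped. As above, these ratios were not tested.

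Crct1, which encodes cysteine-rich C-terminal protein 1, lies next to Lce1m and shared its direction. It was at 632, 346 and 276 CPM in knockouts 2, 3 and 4, against 742, 728, 607 and 462 CPM in controls 5, 6, 7 and 8 (log2 fold change -0.60, SE 0.29, adjusted p by edgeR = 0.9997). Knockout mouse 2 lay within the wild-type range and mice 3 and 4 below it. Without mouse 2 the groups did not overlap, and the log2 fold change was -1.03.

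Small proline-rich proteins are cross-linking partners that epidermis makes in larger amounts under stress, and most of their genes had few counts or 0 in these libraries. Of the 13 Sprr2 genes 11 had 0 counts in all 7 mice, and so did Sprr3 and Sprr4. Sprr2a3 had 35 counts in knockout mouse 2 and 0 elsewhere, and Sprr2b had 1 count each in knockouts 2 and 4. All 50-base windows at the 3′ end of Sprr2a1 and Sprr2a2, and 67.7% of those of Sprr2a3, occur in another gene, so reads of these 3 genes may not have been counted. For Sprr2d to Sprr2h and Sprr2k the share was 0%.

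Sprr1a was the only Sprr gene tested. It was at 270.1, 67.2 and 36.7 CPM in knockouts 2, 3 and 4, against 44.1, 36.7, 64.9 and 38.6 CPM in controls 5, 6, 7 and 8. Mouse 2 was far above all others, mouse 3 was just above wild-type mouse 7, and mouse 4 lay at the lower end of the wild-type values. The log2 fold change was 1.44 (SE 0.54, adjusted p by edgeR = 0.9997) and 0.17 without mouse 2. Sprr1b had 102 counts in knockout mouse 2 and 50 in wild-type mouse 6, and 0 in the other libraries. Krt6a, a stress and follicle keratin, was the 1 called gene of the 10 tested on the list of stress keratins and alarmins. It was at 508 ± 201 CPM for knockouts against 102 ± 32.2 CPM for controls (log2 fold change 2.32, SE 0.31, adjusted p by edgeR = 0.0256). This call was lost when wild-type mouse 5, 6 or 7 was left out, where 0 of all genes tested were called. Krt17 of the same list was at 825 ± 139 CPM for knockouts against 601 ± 108 CPM for controls, and Il33 at 23.9 ± 4.04 CPM for knockouts against 40.2 ± 9.42 CPM for controls, neither of them called. The list summed to 1113.3 to 1859 CPM in knockouts against 717 to 1025 CPM in controls, without overlap. This sum mostly follows Krt17 and Krt6a, the most abundant tested genes of the list. Of the 10 tested genes 4 lay above 0 and 6 below, with a median log2 fold change of -0.58. Among those below 0 were the cytokine Il1b at -1.71 (SE 1.14) and the growth factor Hbegf at -0.76 (SE 0.65), both named after their values were seen.

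**Figure D4:**
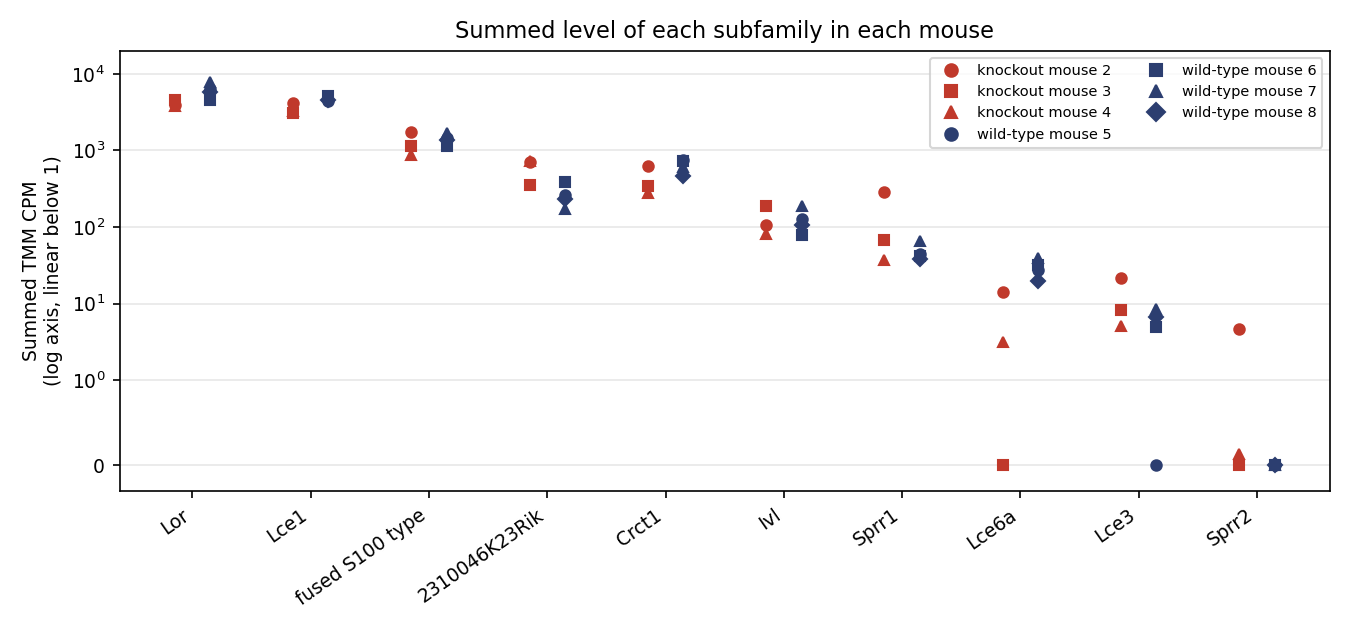
Summed TMM-scaled CPM of each subfamily or single gene in each mouse (log axis, linear below 1; red, 3 knockout; blue, 4 wild type). Lor and Lce1 are lower in all knockouts, while Sprr1, Lce3 and Sprr2 are highest in knockout mouse 2.

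Genes that build, cross-link and process the envelope from outside the complex were described by lists of known envelope genes. Of 13 scaffold and cross-linking genes tested, 0 were called, 9 lay below 0 and the median log2 fold change was -0.29. The most abundant were Dsp, the desmosome plaque protein desmoplakin (log2 fold change -0.26, SE 0.20), Anxa1, which encodes annexin A1 (-0.29, SE 0.22), and Pkp1, the plaque protein plakophilin 1 (-0.38, SE 0.26). Their sum was 3286 to 3909 CPM in knockouts against 3869 to 4938 CPM in controls.

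Of 16 genes that process filaggrin and other precursors, 12 were tested, with 0 called, 6 above and 6 below 0 and a median of 0.01. Asprv1, a protease of profilaggrin, was at 1941 ± 750.4 CPM for knockouts against 2288 ± 617 CPM for controls. Spink5, an inhibitor of skin proteases, and Klk7, a protease of desquamation, had log2 fold changes of 0.03 (SE 0.20) and -0.36 (SE 0.22). Of 24 tested transcription factors of cornification, 0 were called and 19 lay below 0, with a median of -0.15. Gata3 had a log2 fold change of -0.22 (SE 0.21), Junb, a part of AP-1, of -1.11 (SE 0.39) and Maf of 0.56 (SE 0.20). Junb groups overlapped, while all knockouts lay above the controls in Maf.

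Among other genes of the chromosome 3 region outside the S100 family, 3 of the 6 in the table were tested and 0 called. Kprp, which encodes keratinocyte proline-rich protein, was at 540.1 ± 94.6 CPM for knockouts against 707 ± 272 CPM for controls (log2 fold change -0.39, SE 0.27). Prr9 was at 126, 0 and 13.3 CPM in knockouts against 0, 5.97, 0 and 15.1 CPM in controls (log2 fold change 3.14, SE 1.84). Pglyrp4 was at 55.1, 9.86 and 14.9 CPM in knockouts against 19.4, 12.6, 16.7 and 5.82 CPM in controls (log2 fold change 0.97, SE 0.86). Both were high in knockout mouse 2 alone, and the other knockouts lay within the wild-type range.

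Over all 49 genes the summed level was 11607, 9665 and 9099 CPM in knockouts 2, 3 and 4, against 13499, 12085, 15854 and 12525 CPM in controls 5, 6, 7 and 8. All knockouts lay below all controls, with mouse 2 the closest to them, and the knockout mean was 75.0% of the wild-type mean. Per 1000 Krt10 counts the sum was 2686, 2624 and 3527 counts in knockouts against 2921, 2084, 3103 and 2923 counts in controls, with overlap. Lor made up 33.4, 46.6 and 41.8% of these counts in knockouts against 47.5, 37.9, 49.9 and 46.1% in controls.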

How the data were processed

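The deposited table holds raw counts per gene for 56691 genes and 7 mice, as the authors made them from QuantSeq 3′ libraries (kit per the labels' protocols). STAR, GATK 4.2.4.0, featureCounts, Subread 2.0.3, edgeR 3.36.0 and build mm39 are named in the submitters' processing notes, with no step given for each. A second deposited table of log2 values equalled log2 CPM recomputed from the counts of its 12954 genes with TMM factors (largest difference 4.97e-14), and was not used further.

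Counts were tested with edgeR 4.0.16 (R 4.3.3): the default expression filter (minimum 10 counts) left 12888 genes, TMM factors scaled the libraries, and the quasi-likelihood F test compared 3 knockout with 4 wild-type mice, with Benjamini-Hochberg adjustment over all genes tested and a threshold of 0.05. SE were derived from the F statistic. Of the 49 genes 27 were tested, 4 had counts but failed the filter (Sprr1b, Sprr2a3, Sprr2b and Lce3e), and 18 had 0 counts. The procedure was run on simulated data, with changes planted only in genes at a mean of 50 CPM or more. The share recovered is not given here, so no limit on missed changes is drawn from it. The common biological coefficient of variation was 107.7% in the main fit, and Tuft1 itself was not called. A gene that was not called may thus still differ.

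Every tested member was named, those at a mean of at least 50 CPM with the value in every library, and of other lists the 3 most abundant tested genes and any called gene. The members and lists were chosen with earlier results of these data known. Planned exact permutation tests of single members (smallest possible p 0.0286) are not printed for each member. They can differ from edgeR's test of the same comparison. The permutation p was 0.0286 for Lce6a and 0.286 for Sprr1a, where edgeR's unadjusted p was 0.0884 and 0.0198. Alternatives were DESeq2 1.42.0, limma-voom (limma 3.58.1), no filter, other scalings and leaving out each mouse.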

Additional observations from a re-analysis of the deposited data

Results flagged for a closer look

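In 1 of 26 sets of 4 wild-type values that were checked, 1 mouse stood apart, and about 1 such set in 20 would do so by chance. Lce1e was at 20.6 CPM in wild-type mouse 6, against 66.4 to 75.9 CPM in wild-type mice 5, 7 and 8. Without this mouse the log2 fold change of Lce1e was -0.08, against 0.21 with all mice, and the gene was not called either way. In Lce1e 30.8% of the 50-base windows at the 3′ end also occur in another gene. The other Lce1 genes of wild-type mouse 6 were not low as a family, with a summed Lce1 level of 5073 CPM against 4404 to 5172 CPM over the wild-type mice.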

How the results depend on the processing

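No paired analysis was possible because knockouts and controls have no mouse number in common. The count of members called, 0 in each direction, became 2 higher and 2 lower with DESeq2, 3 higher and 1 lower without a filter on low counts, and 1 lower with limma-voom. It stayed 0 with upper-quartile factors, when hair, muscle and fat genes were left out of the TMM factors, and without any 1 mouse. With 1 mouse left out, 1 to 4 members were higher without overlap and 5 to 11 lower, the most lower without knockout mouse 2, while the shares of all genes tested ran from 5.20% to 7.40% higher and from 5.77% to 8.34% lower, against 3.44% and 3.45% with all mice. Dividing the sums by Krt1 and Krt10 counts moved the log2 ratio of all 49 genes from -0.41 to -0.072, of Lce1 from -0.44 to -0.093 and of Lce1 without Lce1m from -0.23 to 0.12. The Sprr1 ratio of 1.44 ran from 0.13 without knockout mouse 2 to 1.88 with another mouse left out. Of 260 refits of the 20 member fold changes, 243 kept sign and side of the threshold, 8 passed it and 9 turned sign. Ivl (0.01) was 0.00 (-0.000495) with upper-quartile factors and ran from -0.41 to 0.27 with 1 mouse left out. On leaving out 1 mouse Lce1e ran from -0.13 to 0.44, Lce1f from -0.20 to 0.54, Lce1j from -0.32 to 0.048 and Hrnr from -0.057 to 0.32. The cause was not tested. Libraries held few counts or 0 for Sprr2, Lce3 and hair genes, and Sprr2a and Lce3 genes also share 3′ sequence with their copies.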
